A study of Mus musculus with 4 samples.

Results

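The miR-30 family was examined in the small RNA library of WT mouse embryonic stem cells. Its members were the rows of the small RNA table named miR-30a, miR-30b, miR-30c, miR-30d or miR-30e, both arms included, which gave 11 of 707 rows. There were 5 rows for 5p arms and 6 for 3p arms, because miR-30c has 1 5p row and separate 3p rows for its hairpins miR-30c-1 and miR-30c-2. The study has 4 groups with 1 library each, WT small RNA and poly(A)-selected mRNA of WT, dgcr8-/- and dicer-/- cells. All 4 carry the strain label V6.5, an embryonic stem cell line, and grew with leukaemia inhibitory factor in serum. The alleles and the number of clones behind each knockout are not described in the labels. DGCR8 helps Drosha release the miRNA hairpin in the nucleus, and Dicer cuts that hairpin into a duplex in the cytoplasm. Small RNA was sequenced in WT only, so the family itself was not compared between genotypes. With 1 library per group there was no replicate check and no test, and every 95% interval below covers counting error only. Reads amplified by PCR are not independent molecules, so the true intervals are wider. How evenly the library captured different sequences was not measured, so comparisons between miRNAs or arms are of reads and may differ from those of molecules.

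A miRNA guides an Argonaute protein to messenger RNAs that pair with its seed, bases 2 to 8 from its 5′ end. A hairpin can give a mature miRNA from its 5p or its 3p side, and usually 1 strand of the duplex is kept while the other is degraded. The miR-30 miRNAs are made from neighbouring hairpin pairs, are found in many differentiated tissues, and have been studied in kidney, heart, fat and in the change from epithelial to mesenchymal cells.

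The mature sequences show why the arms fall into separate seed families. Of the 11 rows, 7 had an entry in the RefSeq miRNA table (build GRCm38.p6): miR-30a, miR-30c and miR-30e with both arms. The others are miR-30b-5p, miR-30b-3p, miR-30d-5p and miR-30d-3p. The sequences below run 5′ to 3′ with the seed in capitals.
miR-30a-5p: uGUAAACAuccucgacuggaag
miR-30e-5p: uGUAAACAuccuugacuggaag
miR-30c-5p: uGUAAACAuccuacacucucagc
miR-30a-3p: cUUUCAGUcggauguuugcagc
miR-30e-3p: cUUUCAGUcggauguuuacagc
miR-30c-1-3p: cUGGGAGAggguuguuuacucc
miR-30c-2-3p: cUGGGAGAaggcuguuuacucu

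These 3 5p miRNAs share 1 seed, GUAAACA, and their first 12 bases are the same. The 5p arms of miR-30a and miR-30e differ only by C13U, and their 3p arms only by G18A. Each change is written with the miR-30a base first, the position counted from 1 at the 5′ end, and the miR-30e base last. The sources used here do not say how reads that align to both were assigned. The 3p arms carry a pair of seeds, UUUCAGU in miR-30a and miR-30e and UGGGAGA in both miR-30c arms. The miR-30c 3p arms differ from each other by G9A, U12C and C22U, all outside the seed, with the miR-30c-1 base first. All 3 of the 5p sequences start with U and all 4 of the 3p sequences start with C.

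The hairpins show where each arm comes from, and that miR-30c-5p is the same molecule from 2 genes. In the 4 hairpins below, from the RefSeq table, the mature arms are in capitals.
Mir30a, chr1:23272269-23272339, plus strand: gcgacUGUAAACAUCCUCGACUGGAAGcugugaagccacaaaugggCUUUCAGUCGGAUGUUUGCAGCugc
Mir30c-2, chr1:23291701-23291784, plus strand: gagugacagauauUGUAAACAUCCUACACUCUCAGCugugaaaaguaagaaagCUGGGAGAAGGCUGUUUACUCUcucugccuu
Mir30c-1, chr4:120769534-120769622, minus strand: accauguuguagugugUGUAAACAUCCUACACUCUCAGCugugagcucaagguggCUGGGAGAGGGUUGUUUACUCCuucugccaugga
Mir30e, chr4:120772606-120772697, minus strand: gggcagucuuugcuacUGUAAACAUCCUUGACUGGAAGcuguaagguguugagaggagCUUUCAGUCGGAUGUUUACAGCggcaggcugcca

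Each of these neighbouring pairs joins a hairpin whose 3p arm has the UUUCAGU seed with one whose 3p arm has the UGGGAGA seed. Mir30a and Mir30c-2 lie 19362 bases apart, and Mir30c-1 and Mir30e lie 2984 bases apart within the span of Nfyc. Between the arms there are 16 to 20 bases. Mir30b and Mir30d are the remaining neighbouring pair, on chromosome 15. RefSeq lists Mir30f on the other strand at the position of Mir30e, and miR-30f has no row in the small RNA table.

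The library was that of embryonic stem cells by its miRNAs. Of 2594949 reads in the table, 18 rows of miRNAs that mark embryonic stem cells (miR-290, miR-291a, miR-292, miR-293, miR-294, miR-295 and miR-302a to miR-302d) held 77.9%. The 14 rows of miRNAs that mark fibroblasts, such as feeder cells, held 0.118%, with miR-143-3p the highest at 1488 reads. The median row of the table had 21.0 reads.

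The miR-30 family held 24847 of the reads, 0.958% (95% interval, Clopper-Pearson, 0.946% to 0.969%). The row with the most reads, miR-293-3p of the miR-290 cluster, had 998005 reads, 40.2 times as many as the whole family. Without those 18 rows the family made up 4.32% of what was left, a setting chosen after seeing the data. All 11 family rows lay above the table's median row, and 5 of them were among the 100 most abundant. The 5p arms together had 23231 reads and the 3p arms 1616.

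**Figure D1:**
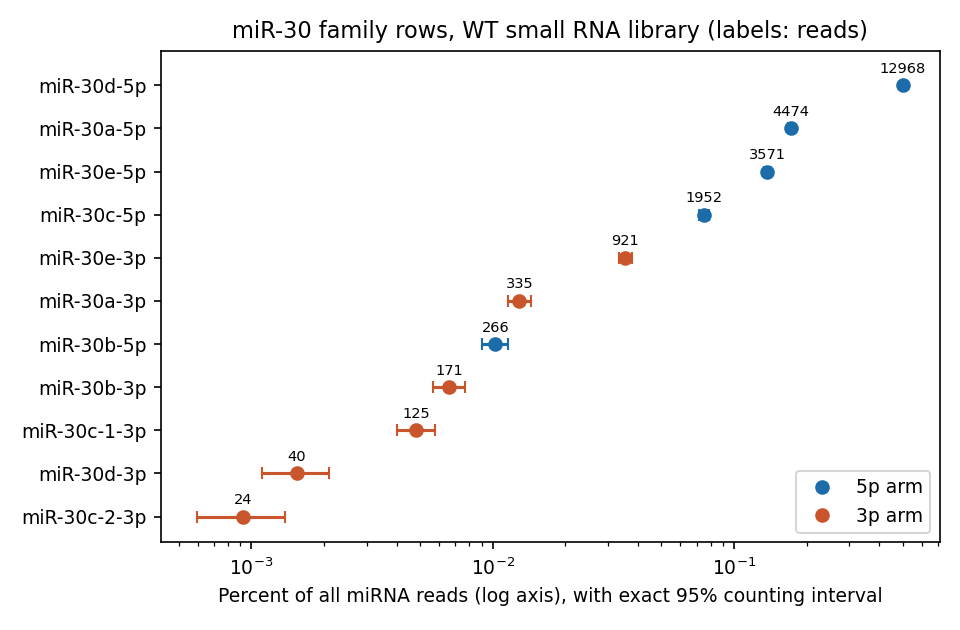
Share of all miRNA reads (log axis, percent) for each of the 11 miR-30 rows in the WT small RNA library, with exact 95% counting intervals and the reads printed above each point; blue is 5p and orange is 3p. The 4 highest rows are 5p arms, and miR-30b-5p, with 266 reads, lies below the 3p arms of miR-30e and miR-30a.

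The most abundant member was miR-30d-5p, with 12968 reads, 0.4997% of the table (0.491% to 0.508%) and 52.2% of the family (51.6% to 52.8%). It ranked 16 of 707, between miR-20b-5p, which shares its seed with miR-17-5p, at 14824 reads, and miR-148a-3p, with 12937. Its ratio to miR-148a-3p was 1.002 (0.978 to 1.03), so those neighbours were not told apart at this depth. The next member, miR-30a-5p, had 4474 reads (18.0% of the family, rank 33). It was not told apart from miR-210-3p, the hypoxia-induced miRNA, with 4593 reads (ratio of miR-210-3p to miR-30a-5p 1.03, 0.985 to 1.07). It was also not told apart from miR-291b-3p, with 4322 reads (ratio 1.04, 0.993 to 1.08). Then came miR-30e-5p with 3571 reads (14.4%, rank 40). Its neighbours were miR-130b-3p with 3702 reads and miR-181d-5p with 3421, and neither ratio had an interval that left out 1. The 5p sequence made by both miR-30c hairpins had 1952 reads (7.86%, rank 55).

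The steps among the 5p arms were uneven. miR-30d-5p had 2.90 times the reads of miR-30a-5p (2.80 to 2.999), miR-30a-5p had 1.25 times those of miR-30e-5p (1.20 to 1.31), and miR-30e-5p had 1.83 times those of miR-30c-5p (1.73 to 1.93). miR-30b-5p was far lower, with 266 reads, 1.07% of the family and rank 164. The 3 members miR-30a, miR-30d and miR-30e held 90.5% of the 5p reads, and miR-30b and miR-30c held 9.55%.

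**Figure D2:**
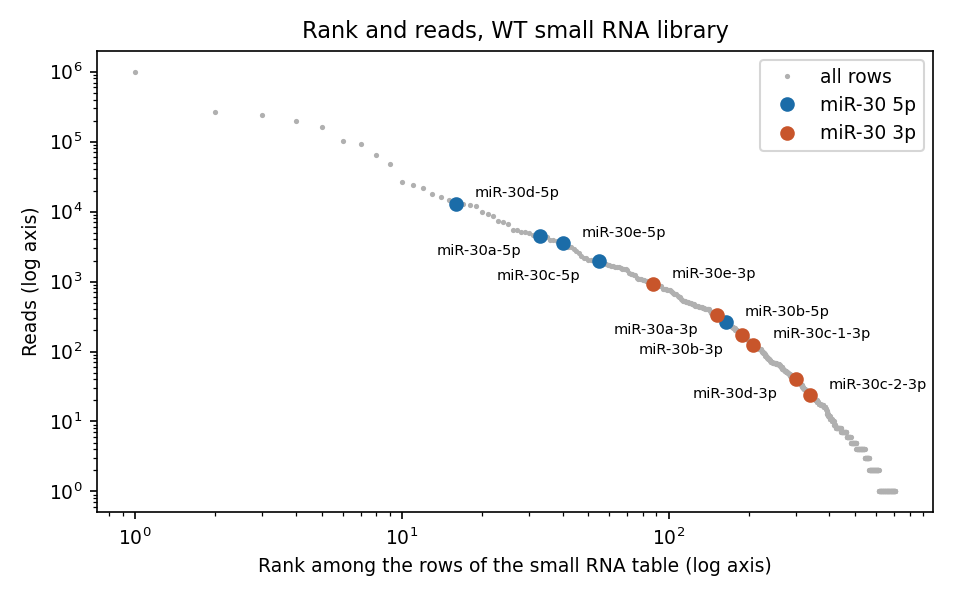
Reads against rank for all 707 rows of the small RNA table, both axes logarithmic; grey points are all rows, blue points the 5p arms and orange points the 3p arms of the miR-30 family. The family runs from miR-30d-5p at rank 16 to miR-30c-2-3p at rank 338.

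The 3p arms followed another order. miR-30e-3p led with 921 reads (rank 87), ahead of miR-30a-3p with 335 (rank 152), a ratio of 2.75 (2.42 to 3.12), although miR-30a-5p exceeded miR-30e-5p. Below them were miR-30b-3p with 171 reads (rank 189), miR-30c-1-3p with 125 (rank 208), miR-30d-3p with 40 (rank 300) and miR-30c-2-3p with 24 (rank 338). Of the 10 steps between neighbours in the order of the 11 rows, the last was the only one whose interval held 1: miR-30d-3p to miR-30c-2-3p, 1.67 (0.980 to 2.89). From miR-30d-5p to miR-30c-2-3p the reads of the family spanned 540.3 times (363 to 844).

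Neighbouring hairpins gave very different numbers of reads. On chromosome 15, miR-30d-5p had 48.8 times the reads of miR-30b-5p (43.2 to 55.3), while miR-30b-3p had 4.28 times those of miR-30d-3p (3.01 to 6.19). The order of this pair of hairpins was therefore opposite in their 5p and 3p arms. In the Mir30a and Mir30c-2 pair, miR-30a-3p had 14.0 times the reads of miR-30c-2-3p (9.22 to 22.1). In the Mir30e and Mir30c-1 pair, miR-30e-3p had 7.37 times those of miR-30c-1-3p (6.11 to 8.95). Even if all 1952 reads of miR-30c-5p came from 1 of its genes, they would be fewer than those of the neighbour, 4474 for miR-30a-5p or 3571 for miR-30e-5p.

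The 3p rows are the only ones that tell the miR-30c genes apart, since their 5p sequence is the same. miR-30c-1-3p, from the hairpin within Nfyc, had 5.21 times the reads of miR-30c-2-3p (3.35 to 8.43). Of the reads in rows named for 1 hairpin pair only, 13445 were of Mir30b with Mir30d (54.1% of the family). Mir30a with Mir30c-2 had 4833 (19.5%) and Mir30e with Mir30c-1 had 4617 (18.6%). The split between these last pairs may depend on how reads that align to both miR-30a and miR-30e were assigned, which is not described. The other reads are those of miR-30c-5p.

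The 5p arm had more reads than the 3p arm in all 5 members, to very different degrees. miR-30d was almost wholly 5p, 12968 of 13008 reads or 99.7% (99.6% to 99.8%). miR-30a had 93.0% (92.3% to 93.7%), and miR-30c, with the reads of both 3p arms summed, 92.9% (91.7% to 94.0%). miR-30e had 79.5% (78.3% to 80.7%), so that its 3p arm took 20.5% of its reads. miR-30b had 266 5p and 171 3p reads, a 5p share of 60.9% (56.1% to 65.5%). Apart from miR-30a and miR-30c, the intervals of the members did not overlap.

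Among the 201 other precursors with both arms listed and at least 10 reads, 109 (54.2%) had more 5p than 3p reads, and the median 5p share was 61.4%. Of these 201, 187 had a lower 5p share than miR-30d, 142 than miR-30a, 117 than miR-30e and 100 than miR-30b. miR-30b therefore stood at the middle of the table's precursors and miR-30d near its top.

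**Figure D3:**
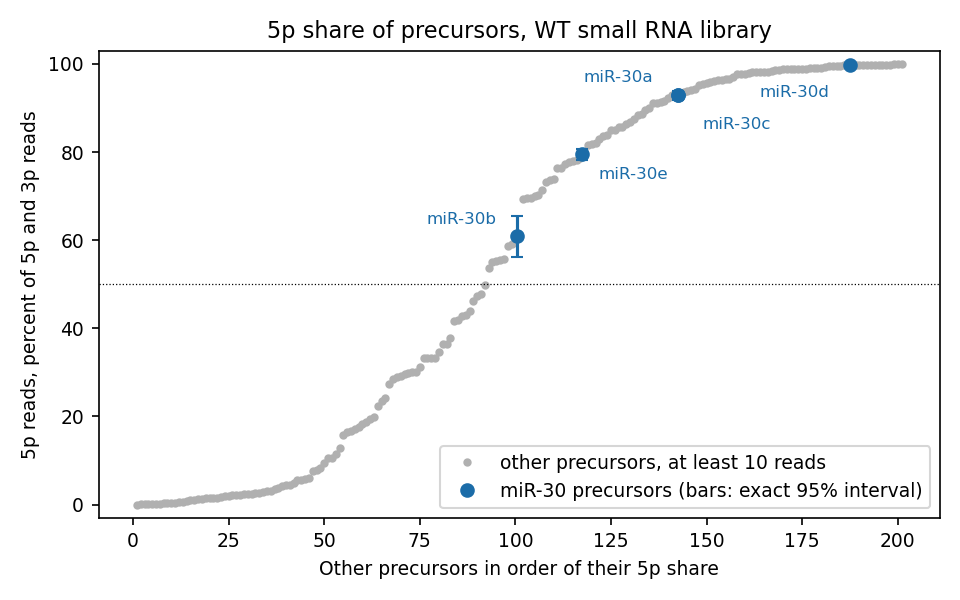
The 5p share of reads (percent of 5p and 3p reads) of 201 other precursors in rising order (grey) and of the 5 miR-30 members (blue, with exact 95% intervals), in the WT small RNA library; the dotted line is an equal share. The members spread from 60.9% for miR-30b to 99.7% for miR-30d, with miR-30a and miR-30c on top of each other.

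The first base of a strand is known to affect which strand Argonaute keeps, with U favoured and C disfavoured in animals. In the sequences shown above, the 5p arms of miR-30a, miR-30c and miR-30e start with U and their 3p arms with C. Of the 201 other precursors, 148 had both arms in the RefSeq table, and 19 of these shared that combination. In 18 of the 19 the 5p arm had more reads, and their median 5p share was 98.1% (quartiles 90.4% and 99.6%). miR-30a and miR-30c lay between those quartiles, and miR-30e at 79.5% lay below them. In the 30 precursors with the opposite U, on the 3p arm and not on the 5p arm, 7 had more 5p reads and the median was 7.76%. Where both arms start with U, 7 of 16 had more 5p reads (median 43.9%), and where neither does, 24 of 55 had (median 36.4%). With U on the 5p arm and A or G on the 3p arm, 22 of 28 had more 5p reads. The median of that group was 89.8% (quartiles 74.7% and 97.1%), and miR-30a, miR-30c and miR-30e all lay between its quartiles. These shares describe 1 library, and related miRNAs among the precursors are not independent. Whether the first base had a part in the 5p shares of the miR-30 members was not tested.

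**Figure D4:**
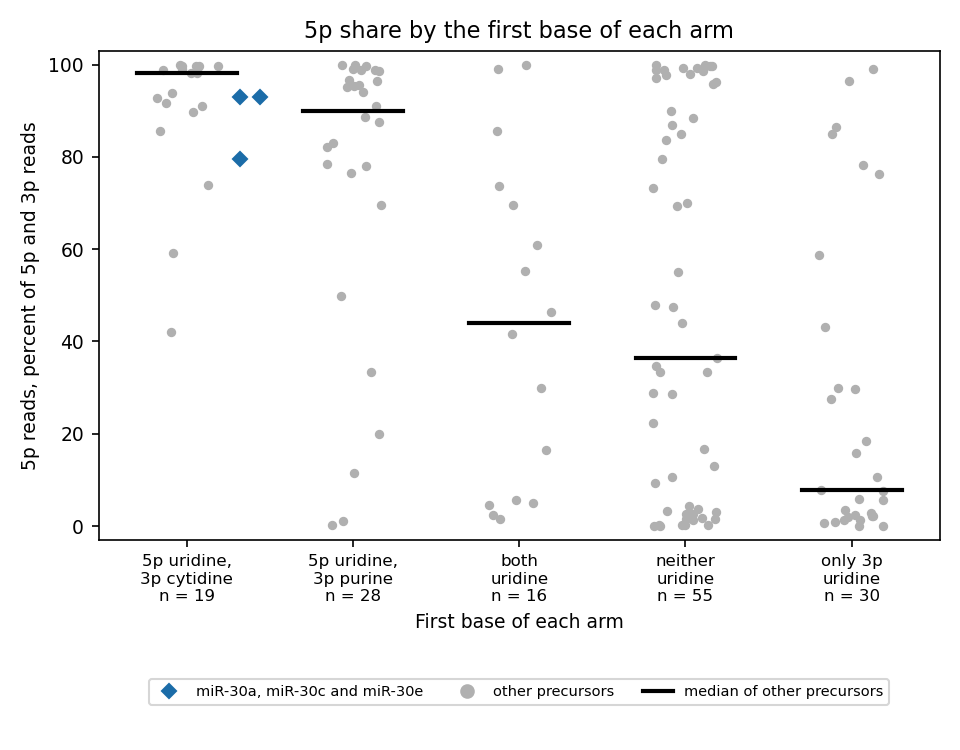
The 5p share (percent of 5p and 3p reads) of other precursors in the WT small RNA library, grouped by the first base of each arm; grey points are precursors, black lines medians, and blue diamonds miR-30a, miR-30c and miR-30e. The group with U on the 5p and C on the 3p arm has the highest median, 98.1%, and miR-30e lies below most of that group.

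Reads were also summed by seed, since miRNAs with the same seed can pair with the same sites. Of the 707 rows, 557 with 89.9% of the reads had a sequence in the table, in 455 seed groups. The 3 sequences with the seed GUAAACA summed to 9997 reads, and the group ranked 13 of these 455. It stood between miR-21a-5p, with 12199 reads, and miR-340-5p, with 9742. With miR-30b-5p and miR-30d-5p counted in by their family name, the 5p arms had 23231 reads. That total would rank 10 among these groups, next below the seed of miR-7a and miR-7b with 24406 reads and above miR-22-3p with 17876. Other rows without a sequence are in no group, among them miR-292-3p with 198264 reads, more than this total. All ranks by seed, also those of the 3p seeds, leave such rows out and could be lower with them counted. Among the rows with a sequence, none outside the family had the seed GUAAACA or either 3p seed; the seeds of the remaining rows were not computed. The RefSeq table holds 2 further miRNAs with a family seed, miR-384-5p and miR-6958-5p, and neither has a row.

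The 3p seeds were far less abundant. UUUCAGU, of miR-30a-3p and miR-30e-3p, had 1256 reads and ranked 45 of 455, between miR-450a-5p with 1275 reads and the group of miR-200a-3p and miR-141-3p with 1122. UGGGAGA, of both miR-30c 3p arms, had 149 reads and ranked 118, between miR-184-3p with 150 and miR-370-3p with 146.

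Nfyc, the only protein-coding gene whose span holds miR-30 hairpins, encodes a subunit of the NF-Y transcription factor, which binds CCAAT boxes. Its mRNA was measured in all 3 genotypes, as CPM, counts scaled to the same total in each library. Nfyc was at 94.2 CPM in WT (936 counts), at 92.6 CPM without Dgcr8 (1030 counts) and at 94.8 CPM without Dicer (1167 counts). The ratio to WT was 0.983 (0.898 to 1.07) in the Dgcr8 knockout and 1.01 (0.922 to 1.10) in the Dicer knockout, and the ratio of the knockouts to each other was 0.977 (0.897 to 1.06). With total-count scaling the 3 libraries thus differed by less than their counting error. The ratio without Dgcr8 was 0.907 with TMM scaling (0.829 to 0.992) and 0.892 with median-ratio scaling (0.816 to 0.976), so both of these intervals left out 1, while those without Dicer did not, at 0.935 (0.857 to 1.02) and 0.931 (0.853 to 1.015). These counts are of the Nfyc transcript and not of the hairpins inside it. None of the other hairpins had an annotated gene over it or within 2 kb apart from miRNA genes.

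A list of genes reported elsewhere as miR-30 targets, most of them in other cell types, was then compared between each knockout and WT. The list was written from general knowledge and its entries were not checked against the literature, so that some may not be miR-30 targets in these cells. DGCR8 and Dicer are needed to make canonical miRNAs, not only miR-30, so the comparison cannot single out 1 family. The loss of miRNAs in these knockout cells was not measured. The mRNA libraries were sequenced to 9931625 counts for WT, 11123498 for dgcr8-/- and 12309100 for dicer-/-. The gene targeted in each knockout was lower there than in WT and not at 0, Dgcr8 at 20.9 against 52.7 CPM and Dicer1 at 20.1 against 79.9 CPM. The 6 stem cell markers were at 382 to 5564 CPM in WT, 386 to 2715 CPM without Dgcr8 and 95.1 to 4222 CPM without Dicer. The lowest of these values was that of Zfp42 without Dicer, against 488 CPM in WT, and Dppa5a went from 5564 CPM in WT to 2715 without Dgcr8. Of 7 feeder fibroblast markers 2 had rows, Thy1 and Col1a1, and their levels summed to 27.4 CPM in WT but 2.61 without Dgcr8 and 1.71 without Dicer. Their part in the results was not tested, and fewer cells of a type cannot be told apart from less RNA per cell. Both knockouts share the WT library. Low counts from 2 to 9 were even in 69.6% to 74.7% of cases, so intervals for mRNA ratios may be too narrow.

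Of the 32 listed targets, 26 had a row and reached 1 CPM in WT or the knockout. On the log2(CPM + 1) scale, 8 were higher by 2-fold or more in the Dgcr8 knockout, and 3 were lower by as much. Among all 13223 genes compared, 14.3% were higher and 8.02% lower by this rule. The median log2 ratio of the list was 0.38, beside 0.11 for all genes. In the Dicer knockout, 5 were higher and 1 lower, where 16.0% and 9.7% of 13403 genes were, and the median was 0.41 beside 0.10. At 1.5-fold, 11 targets were higher and 4 lower in the Dgcr8 knockout, beside 27.1% and 17.7% of all genes, and 11 higher and 1 lower in the Dicer knockout, beside 28.0% and 19.7%. At 4-fold, 3 targets were higher and 0 lower in the Dgcr8 knockout, beside 2.59% and 1.2% of all genes. In the Dicer knockout 4 were higher and 0 lower at 4-fold, beside 4.02% and 1.74%. Scaling by TMM or median ratios moved the median of all genes by -0.11 and -0.13 without Dgcr8, and by -0.10 and -0.11 without Dicer. Among all genes called in the Dgcr8 knockout, 64.1% were higher, but 55.4% with TMM and 53.6% with median-ratio scaling. The listed targets higher there numbered 7 with TMM and 6 with median-ratio scaling, beside 1609 and 1558 of 13223 genes. Prdm1 reached 1 CPM only in the knockouts and Cthrc1, in the Dgcr8 pair, only in WT, so these could come out only higher and only lower there.

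The targets past 2-fold in each comparison are described first. Because both comparisons use the same WT library, they are not independent of each other. Prdm1, the gene of the transcriptional repressor BLIMP1, was at 4 counts in WT and at 237 without Dgcr8 or 596 without Dicer, ratios of 52.9 (20.4 to 196) and 120.2 (46.7 to 443). Vim, the intermediate filament vimentin of mesenchymal cells, was at 77.1 CPM in WT, 562 without Dgcr8 and 338 without Dicer, ratios of 7.28 (6.75 to 7.86) and 4.38 (4.05 to 4.74). Tnrc6a, the GW182 scaffold that joins Argonaute to the deadenylation machinery, had 34.9, 149 and 164 CPM in the same order, ratios of 4.27 (3.80 to 4.80) and 4.69 (4.18 to 5.27). Ccne2, the S-phase cyclin E2, had 20.5, 46.1 and 46.7 CPM. With median-ratio scaling the log2 ratio of Ccne2 without Dgcr8 was 0.996, just inside 2-fold.

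Snai1, the transcriptional repressor that drives the epithelial to mesenchymal change, went the other way. It was at 19.0 CPM in WT, 6.65 without Dgcr8 and 5.52 without Dicer, ratios of 0.350 (0.264 to 0.460) and 0.290 (0.217 to 0.385). Both knockout values lay below that of WT, as did those of the feeder markers Thy1 and Col1a1, whose part in this was not tested.

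The remaining targets past 2-fold were so in 1 knockout. In the Dgcr8 knockout these were the glycosyltransferase gene Galnt7 (log2 ratio 1.67), the adhesion gene Ncam1 (1.27), the receptor gene Notch1 (1.19) and the actin regulator gene Twf1 (1.06) on the higher side. On the lower side were Cthrc1 (-1.66), with 30 counts in WT and 3 without Dgcr8 (ratio 0.0893, 0.0174 to 0.287), and the ectonucleotidase gene Nt5e (-1.05). Thy1 and Col1a1 were lower than in WT there (2.07 and 0.539 CPM) and also in the Dicer knockout (1.30 and 0.406 CPM). Their part was not tested. The log2 ratios of the targets just named were, in the Dicer knockout, 0.90 for Galnt7, 0.10 for Ncam1, 0.81 for Notch1, 0.75 for Twf1, 0.11 for Cthrc1 and -0.13 for Nt5e. In the Dicer knockout it was Ctgf, the secreted matrix protein and YAP target, at 2.48, against 0.95 in the Dgcr8 knockout. Its level was 11.9 CPM in WT, 23.8 CPM without Dgcr8 and 71.1 CPM without Dicer. Taken without the pseudocount, the ratio of Ctgf in the Dgcr8 knockout to WT was 2.005 (1.61 to 2.51), at the 2-fold line.

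Targets from other pathways lay inside 2-fold in both. The p53 gene Trp53 was at 0.71 without Dgcr8 and 0.87 without Dicer. The Polycomb gene Eed was at -0.21 in both, and the cell cycle transcription factor gene Mybl2 at 0.48 and -0.18. The autophagy gene Becn1 was at -0.35 and -0.08, the integrin gene Itgb3 at -0.60 and 0.16, and the cytokine signalling inhibitor gene Socs1 at 0.11 and -0.38.

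**Figure D5:**
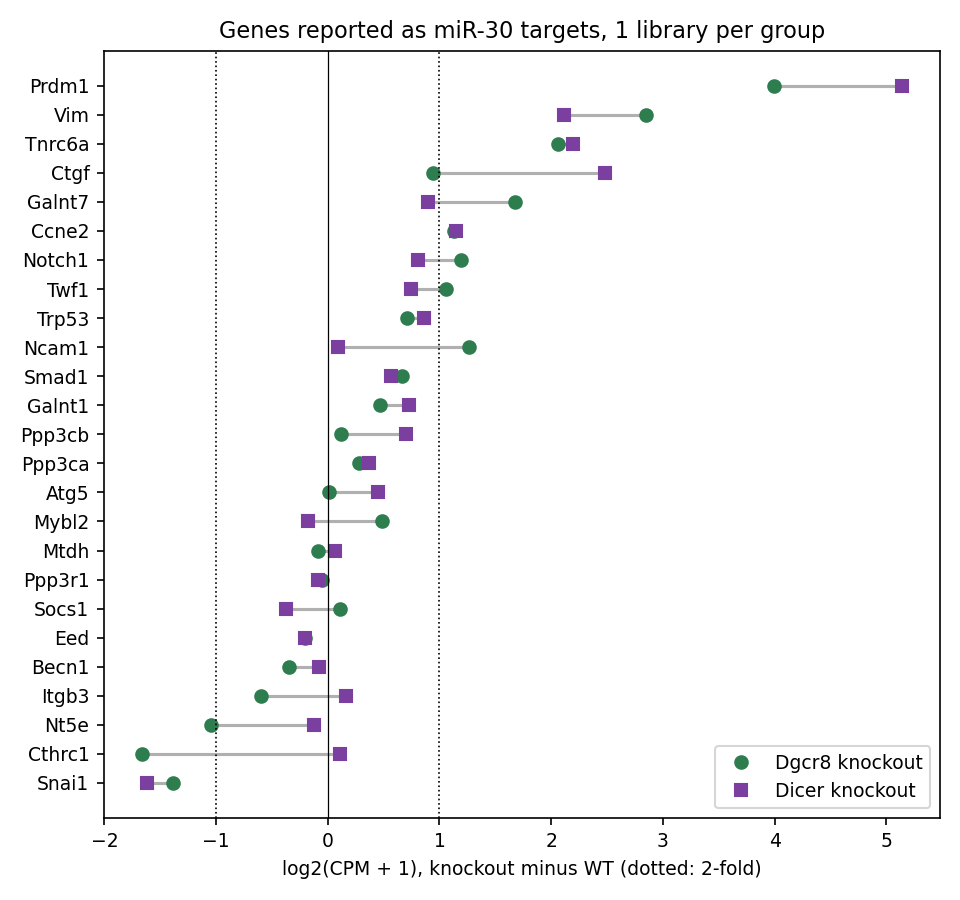
Difference in log2(CPM + 1) between each knockout and WT for 25 of the 26 listed miR-30 targets with a row (green circles, Dgcr8 knockout; purple squares, Dicer knockout; 1 library per group; dotted lines, 2-fold). With total-count scaling, Prdm1, Vim, Tnrc6a and Ccne2 lie above 2-fold in both and Snai1 below it in both.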

How the data were processed

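Both tables hold whole-number counts as the authors deposited them, per mature miRNA in 1 WT small RNA library and per RefSeq transcript entry in 3 mRNA libraries. Bowtie and the mouse build mm9 are named in the submitters' processing notes; how reads were trimmed, matched with mismatches, assigned by strand and counted is not given in those sources. Empty mRNA cells were read as 0. Units were read from the values.

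Shares carry exact Clopper-Pearson 95% intervals, and ratios exact conditional binomial ones (scipy 1.17.1). Sequences were matched by miRNA name, 11 of them with the letter a added. For mRNA, CPM were taken over all counts of a library, and log2 ratios used a pseudocount of 1, a floor of 1 CPM in at least 1 of 2 libraries and a call at 2-fold. Other settings changed the pseudocount (0.1 and 5), floor, size rule, scaling (median ratios, and TMM in edgeR 4.0.16), seed, denominator and read minimum. Named genes were all family rows, their neighbours in rank and seed group, host genes, the 6 highest and 6 lowest targets of each knockout and those called in both. The members and the lists were chosen with earlier results of these data known. The samples are separate only by their labels, and 6 listed targets (Runx2, Dll4, Chd7, Lox, Lhx1 and Bdnf) were not analysed here. Of the targets counted, 1 that the naming rule takes is not reported here.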

Additional observations from a re-analysis of the deposited data

How the results depend on the processing

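The family's share of reads, 0.958%, was 1.56% without the most abundant seed group (miR-293-3p alone) and 4.32% without the 18 stem cell miRNA rows of the list, since fewer reads were in the denominator. The share of miR-30d-5p rose from 52.2% of the family to 55.8% of its 5p rows. The ratio of Nfyc in the Dgcr8 knockout to WT was 0.892 with median-ratio scaling. In the Dgcr8 knockout, 3 targets were higher and 0 lower at 4-fold, and 1 was lower with a pseudocount of 5. In the Dicer knockout, 11 were higher at 1.5-fold and 0 lower at 4-fold. A pseudocount of 5 took the genes called higher among all genes from 1891 to 1087 in the Dgcr8 knockout and from 2144 to 1232 in the Dicer knockout, and those lower from 1060 to 411 and from 1300 to 591. The other 35 values of the family, host and target counts under these settings stayed within their interval or within 1.5 times. Of the values of single named targets under these settings, 239 stayed within their interval and 14 did not. Among the latter, Prdm1 was at 2.28 without Dgcr8 and 3.31 without Dicer with a pseudocount of 5, from 3.99 and 5.14. No named target changed sign in a comparison where it was called. Ncam1, not called in the Dicer knockout, went from 0.10 there to -0.0030 with TMM and -0.0090 with median-ratio scaling. Socs1, not called in the Dgcr8 knockout, went from 0.11 there to -0.0038 with median-ratio scaling. miR-30d-3p and miR-30c-2-3p, at 40 and 24 reads, were not told apart at this depth. No paired analysis was possible because each group has 1 library.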
